A study of Mus musculus with 12 samples.

Results

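Gonadal fat pads of chow-fed mice were compared between 3 libraries in which Foxj1, the master transcription factor of motile ciliogenesis, stood above 10 FPKM (sequenced fragments scaled by transcript length and by the library's total) and 3 in which it stood below 2 FPKM. These are 6 of the 12 libraries of the series. The 3 high-Foxj1 libraries were KO_NCD 2, WT_NCD 2 and WT_NCD 4, and the 3 low-Foxj1 libraries were KO_NCD 3, KO_NCD 4 and WT_NCD 1, so each side holds both genotypes. Values of single libraries are listed in these orders throughout. Foxj1 itself chose the libraries, so every difference between the 2 sides is a description of these 6 libraries and carries no test.

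The series measured poly(A) mRNA of gonadal white adipose tissue from male C57BL/6 mice, either lacking miR-10a (KO) or wild type (WT). Mice were given a high-fat diet (HFD) or normal chow (NCD) for 16 weeks from 8 weeks of age. The 4 groups, KO_HFD, WT_HFD, KO_NCD and WT_NCD, have 3 libraries each, labelled as biological replicates. The p-values given for diet and genotype measure the spread between these samples. A library is named here by its group and the number in its column header. How the allele was made is not given in the sources used here, and these libraries cannot check it: the row Mir10a was listed at 0.0221 to 0.425 FPKM over all 12 libraries, and mature miRNAs are not captured by poly(A) selection.

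In male mice the gonadal pad is attached to the epididymis and to the efferent ducts, the thin tubules that carry sperm from the testis. The efferent duct epithelium consists of multiciliated cells, which stir the luminal fluid, and of non-ciliated cells with a brush border and endocytic receptors, which reabsorb that fluid. Motile cilia are built on an axoneme of microtubules with dynein arms, radial spokes and a central pair. Their genes are switched on together by a cascade that runs from Gmnc, Mcidas and Myb to Foxj1 and the RFX factors. Pax8 is a transcription factor of duct and kidney tubule epithelium, which develop from the same embryonic ridge.

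The summed FPKM of a library lay between 383633 and 455434, and the low values did not show steps worth 1 read, so the sequencing depth is unknown. Between 13473 and 13667 genes reached 1 FPKM in the high-Foxj1 libraries, against 12859 to 12954 in the low-Foxj1 libraries. A gene is called tested where 3 or more of all 12 libraries had 1 FPKM or more of it, which held for 14340 of 30268 genes.

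The markers of ciliated duct epithelium were present on both sides at different levels. Foxj1 (chr11:116330704-116335499, GRCm38.p6) was at 25.3, 17.4 and 11.1 FPKM in the high-Foxj1 libraries, against 1.18, 1.49 and 0.592 FPKM in the low-Foxj1 libraries. In the 6 HFD libraries, which played no part in the choice, Foxj1 reached at most 0.383 FPKM. The low-Foxj1 chow libraries therefore still held more Foxj1 than every HFD library, and they are called low, not negative. In bulk tissue, fewer cells of a type and less RNA per cell cannot be told apart.

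Ccdc153 (chr9:44240677-44247306), a coiled-coil protein of ciliated cells, was at 44.3, 28.5 and 22.5 FPKM in the high-Foxj1 libraries, against 3.13, 1.92 and 1.44 FPKM in the low-Foxj1 libraries. Tmem212 (chr3:27866065-27896391), a membrane protein used as a marker of multiciliated cells, was at 22.5, 15.1 and 13.5 FPKM, against 1.19, 1.09 and 0.217 FPKM in the low-Foxj1 libraries. Both genes were listed at 0 in at least 3 of the 6 HFD libraries. The markers of the non-ciliated duct cells kept the same split. Pax8 (chr2:24420551-24475599) was at 5.82, 4.08 and 3.02 FPKM in the high-Foxj1 libraries, against 0.411, 0.438 and 0.208 FPKM in the low-Foxj1 libraries. Mmp7 (chr9:7692090-7699585), a matrix metalloprotease of ductal epithelia, was at 62.9, 62.7 and 32.9 FPKM, against 3.80, 4.90 and 1.18 FPKM in the low-Foxj1 libraries. Mean levels were 17.9 ± 7.10 against 1.09 ± 0.456 FPKM for Foxj1 and 52.8 ± 17.3 against 3.29 ± 1.91 FPKM for Mmp7 (SD, n = 3 libraries on each side), ratios of 16.5 and 16.0. The pan-epithelial adhesion molecule Epcam was at 16.4, 13.9 and 6.71 FPKM in the high-Foxj1 libraries, against 1.22, 1.42 and 0.659 FPKM in the low-Foxj1 libraries. The 3 libraries were thus high in ciliated, absorptive and general epithelial markers alike, so ciliated-cell markers were not the only ones that set them apart.

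**Figure D1:**
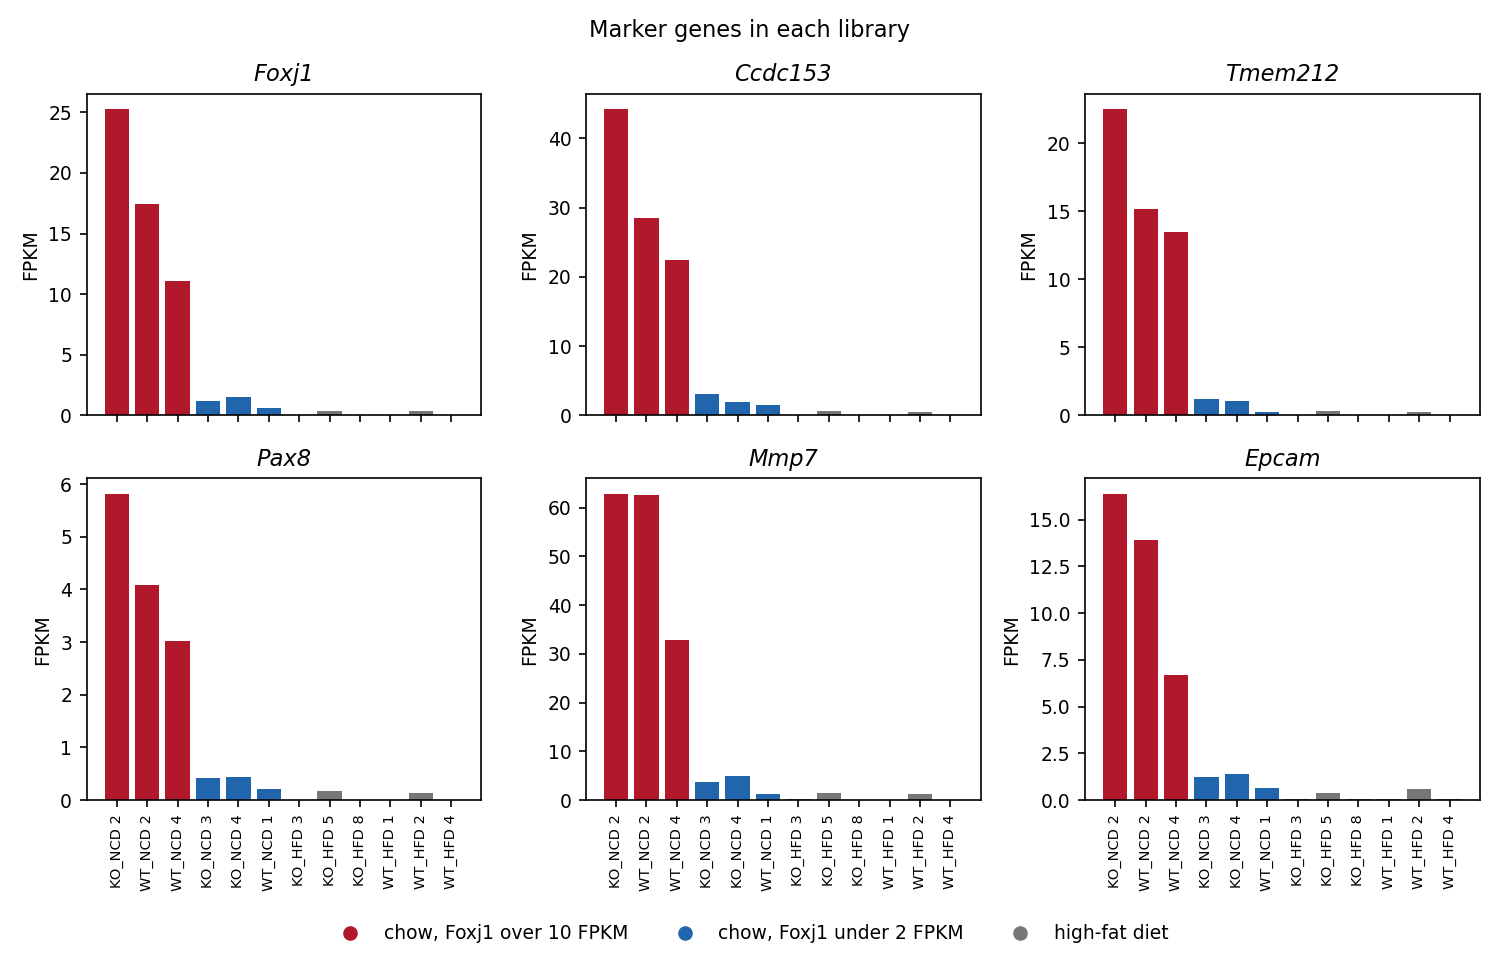
Levels of 6 epithelial genes in FPKM (vertical axes, each starting at 0) in every library, with chow libraries above 10 FPKM of Foxj1 in red, chow libraries below 2 FPKM in blue and HFD libraries in grey. The 3 red bars stand above all others in each panel, for example 11.1 FPKM or more for Foxj1 against 1.49 FPKM or less in the blue bars, and the grey bars of Foxj1 reach at most 0.383 FPKM.

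A gene is counted as higher or lower here when the 3 libraries of one side all lay beyond the 3 of the other and the means of log2(FPKM + 1) differed by at least 1. On that scale 371 of the 14340 tested genes were higher in the high-Foxj1 libraries (2.59%) and 15 were lower (0.105%). Without the size limit, 1885 tested genes lay higher with no overlap (13.1%) and 377 lower (2.63%), and among all 28230 genes above 0 in at least 1 chow library the shares were 12.7% and 2.28%. The median difference over all tested genes was 0.03. Of the 371 higher genes, 350 are protein coding and 16 are annotated as lncRNA, and 237 reached the filter only through the 3 high-Foxj1 libraries. Their summed FPKM made up 0.397% to 0.709% of all FPKM in the high-Foxj1 libraries, against 0.0939% to 0.110% in the low-Foxj1 libraries. The threshold falls inside a continuous range: Haao (1.00), Tstd1 (1.01) and Glyat (1.01) lay just inside it and Retreg1 (1.00), Hivep3 (1.00) and Lrrc36 (0.99) just outside.

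**Figure D2:**
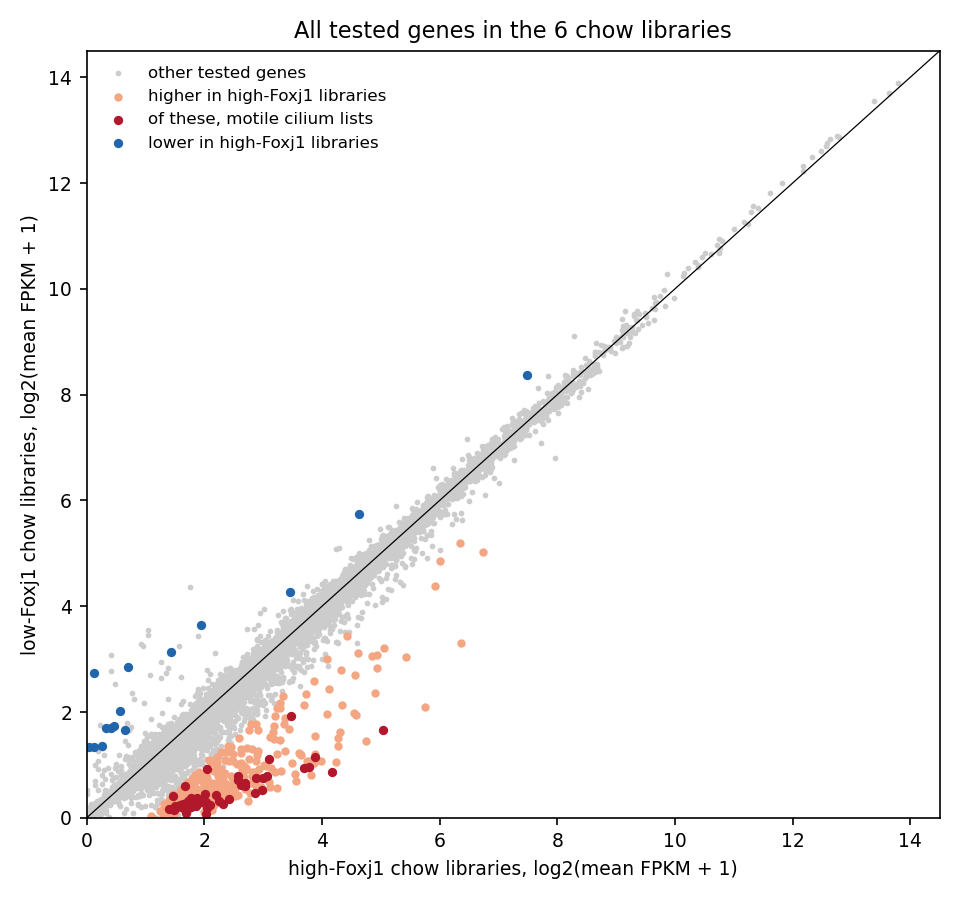
Mean level of each tested gene as log2(mean FPKM + 1) in the 3 high-Foxj1 chow libraries (horizontal axis) and the 3 low-Foxj1 chow libraries (vertical axis), with the diagonal of equal levels. The 371 higher genes lie to the right of the diagonal, those of the motile cilium among them in dark red, and the 15 lower genes lie to the left in blue.

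The genes with the largest differences came from several kinds of epithelial function. After Mmp7 (3.71), Ccdc153 (3.35) and Tmem212 (3.31) came Calml3, a calmodulin-like protein of epithelial cells, at 33.5, 27.4 and 16.6 FPKM in the high-Foxj1 libraries against 1.76, 2.43 and 1.03 FPKM in the low-Foxj1 libraries. Lcn2 (chr2:32384637-32387739), a secreted lipocalin that binds siderophores, was at 101, 93.1 and 51.5 FPKM, against 8.69, 10.7 and 7.46 FPKM in the low-Foxj1 libraries. Lcn2 was at 11.5 to 27.1 FPKM in the HFD libraries, all of them above the low-Foxj1 libraries. Ptgds, the lipocalin-type prostaglandin D synthase, was at 17.3, 22.3 and 15.4 FPKM in the high-Foxj1 libraries, against 1.59, 2.52 and 1.38 FPKM in the low-Foxj1 libraries. Mt3, a metal-binding metallothionein, was at 23.2, 17.5 and 14.3 FPKM, against 2.38, 1.82 and 0.492 FPKM in the low-Foxj1 libraries. Ppp1r1b, a regulator of protein phosphatase 1, Mia, a small secreted protein, and Acsbg1, a long-chain acyl-CoA synthetase, differed by 2.87, 2.86 and 2.67 on the log2(FPKM + 1) scale.

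Among the genes that switch on ciliogenesis, Foxj1 itself chose the libraries, so its height above the early regulators there is no finding. Of 14 regulators in the table, Foxj1 among them, 9 lay higher with no overlap, against 12.7% of all genes above 0 in chow. Their median difference was 0.19. Myb, which acts before Foxj1 in multiciliated cells, was at 2.26, 1.75 and 1.26 FPKM in the high-Foxj1 libraries, against 0.234, 0.495 and 0.296 FPKM in the low-Foxj1 libraries. Gmnc, the Geminin relative at the top of the cascade, was at 0.783, 0.928 and 0.678 FPKM, against 0.0424, 0.0817 and 0.0153 FPKM in the low-Foxj1 libraries. Both were low in absolute level and both split the 6 libraries without overlap. Trp73 and Ccno, a cyclin needed for mass centriole formation, reached 0.871 and 1.01 FPKM at most in the chow libraries. Mcidas stayed at or below 0.0472 FPKM and Foxn4 at or below 0.0113 FPKM in chow. The RFX factors, which cells without motile cilia also express, differed little: Rfx2 was at 3.35, 3.50 and 3.84 FPKM in the high-Foxj1 libraries, against 2.41, 2.501 and 2.85 FPKM in the low-Foxj1 libraries. The centriole genes Plk4 and Cep152 overlapped between the sides.

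The structural genes of the axoneme were higher across nearly all of their classes. Of the 116 motile cilium genes in the table, in 4 lists of dynein arms, arm assembly, spokes and central pair, and microtubule inner and other axonemal proteins, 105 lay higher with no overlap. The same held for 12.7% of all genes above 0 in chow, and the lists were picked for this cell type with earlier results of these data known. Of these 116 genes, 71 passed the filter and 47 of them were higher by at least 1. The other 324 of the 371 higher genes are in none of the 4 lists.

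Among the axonemal dyneins, the motors that bend the cilium, 21 of 23 genes lay higher with no overlap, with a median difference of 0.65. Dnali1, an inner-arm light chain, was at 4.82, 3.87 and 2.65 FPKM in the high-Foxj1 libraries, against 0.381, 0.227 and 0.146 FPKM in the low-Foxj1 libraries. Dnaic2, an outer-arm intermediate chain, was at 2.73, 1.91 and 1.05 FPKM, against 0.122, 0.168 and 0.148 FPKM in the low-Foxj1 libraries. The heavy chains, whose transcripts are very long, had low FPKM: Dnah5 was at 1.22, 1.02 and 0.495 FPKM in the high-Foxj1 libraries, against 0.0788, 0.142 and 0.052 FPKM in the low-Foxj1 libraries. Dnal4 and Dnah8 were the 2 members that overlapped, and Dnal4 was at 13.02, 9.62 and 11.6 FPKM, against 9.75, 8.59 and 9.10 FPKM in the low-Foxj1 libraries. Reads may be split among Dnah7a, Dnah7b and Dnah7c, which are near-identical copies. Of 13 genes listed for arm assembly, not all of them cytoplasmic factors, 12 lay higher with no overlap, with a median of 0.61. Ccdc39, the ruler protein that sets the axonemal repeat, was at 3.09, 2.62 and 2.33 FPKM, against 0.230, 0.461 and 0.181 FPKM in the low-Foxj1 libraries. Zmynd10 was at 2.498, 1.58 and 1.42 FPKM in the high-Foxj1 libraries, against 0.291, 0.117 and 0.110 FPKM in the low-Foxj1 libraries. The assembly factors with roles in many cells were close to even, with Dnaaf5 differing by 0.15 and Dnaaf2 overlapping.

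Radial spokes, nexin links and the central pair relay the signals that order the dyneins, and 27 of 30 such genes lay higher with no overlap (median difference 0.98). Rsph1 (chr17:31255019-31277296), a radial spoke head protein, was at 16.6, 10.8 and 8.67 FPKM in the high-Foxj1 libraries, against 1.19, 0.986 and 0.566 FPKM in the low-Foxj1 libraries. Nme5, a spoke-associated nucleoside diphosphate kinase relative, was at 8.92, 7.25 and 6.07 FPKM, against 0.878, 0.914 and 0.390 FPKM in the low-Foxj1 libraries. Drc3 and Drc7 of the nexin link differed by 1.82 and 1.60, and Spag6l and Spag16 of the central pair by 1.37 each. Rsph3a and Rsph3b, near-identical copies whose reads may be split, and Spag6 overlapped.

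Proteins inside and along the axonemal microtubules gave the highest median of the 4 lists, 1.36, with 45 of 50 genes higher without overlap and 32 of them by at least 1. Sntn, a protein of the ciliary tip, was at 8.98, 7.46 and 4.19 FPKM in the high-Foxj1 libraries, against 0.531, 0.538 and 0.244 FPKM in the low-Foxj1 libraries. Fam183b was at 15.8, 11.3 and 10.9 FPKM, against 1.17, 1.10 and 0.603 FPKM in the low-Foxj1 libraries. Dynlrb2 (chr8:116505015-116515915), a roadblock-type dynein light chain, was at 18.96, 11.95 and 10.1 FPKM, against 1.28, 1.68 and 0.698 FPKM in the low-Foxj1 libraries. These 3 genes kept the same order among the high-Foxj1 libraries. Tekt1, a tektin filament protein, was at 8.92, 5.51 and 4.69 FPKM in the high-Foxj1 libraries, against 0.693, 0.847 and 0.484 FPKM in the low-Foxj1 libraries, but it was at 1.27 to 3.33 FPKM in the HFD libraries, above every low-Foxj1 chow library. The 5 overlapping members were Tubb4b, Nme7, Morn2, Efhc2 and Tuba1a, of which Tuba1a, a tubulin of many cell types, was at 377, 398 and 433 FPKM, against 287, 524 and 697 FPKM in the low-Foxj1 libraries.

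Intraflagellar transport and the BBSome, which serve primary cilia as well, differed by smaller amounts than the axoneme. Of 30 genes 18 lay higher with no overlap, against 12.7% of all genes above 0 in chow. None was higher by 1, and the differences lay between -0.00 and 0.48. Ift80, the member with the largest difference, was at 3.22, 3.31 and 2.45 FPKM in the high-Foxj1 libraries, against 1.72, 1.83 and 1.995 FPKM in the low-Foxj1 libraries. A further 32 genes of axonemes and basal bodies among the 371, gathered after their values were seen, included Mapk15, a kinase of basal bodies, at 14.003, 8.27 and 8.52 FPKM, against 1.41, 1.37 and 0.395 FPKM in the low-Foxj1 libraries. Daw1, an outer-arm transport factor, was at 1.95, 1.36 and 1.07 FPKM in the high-Foxj1 libraries and listed at 0 in all 3 low-Foxj1 libraries.

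**Figure D3:**
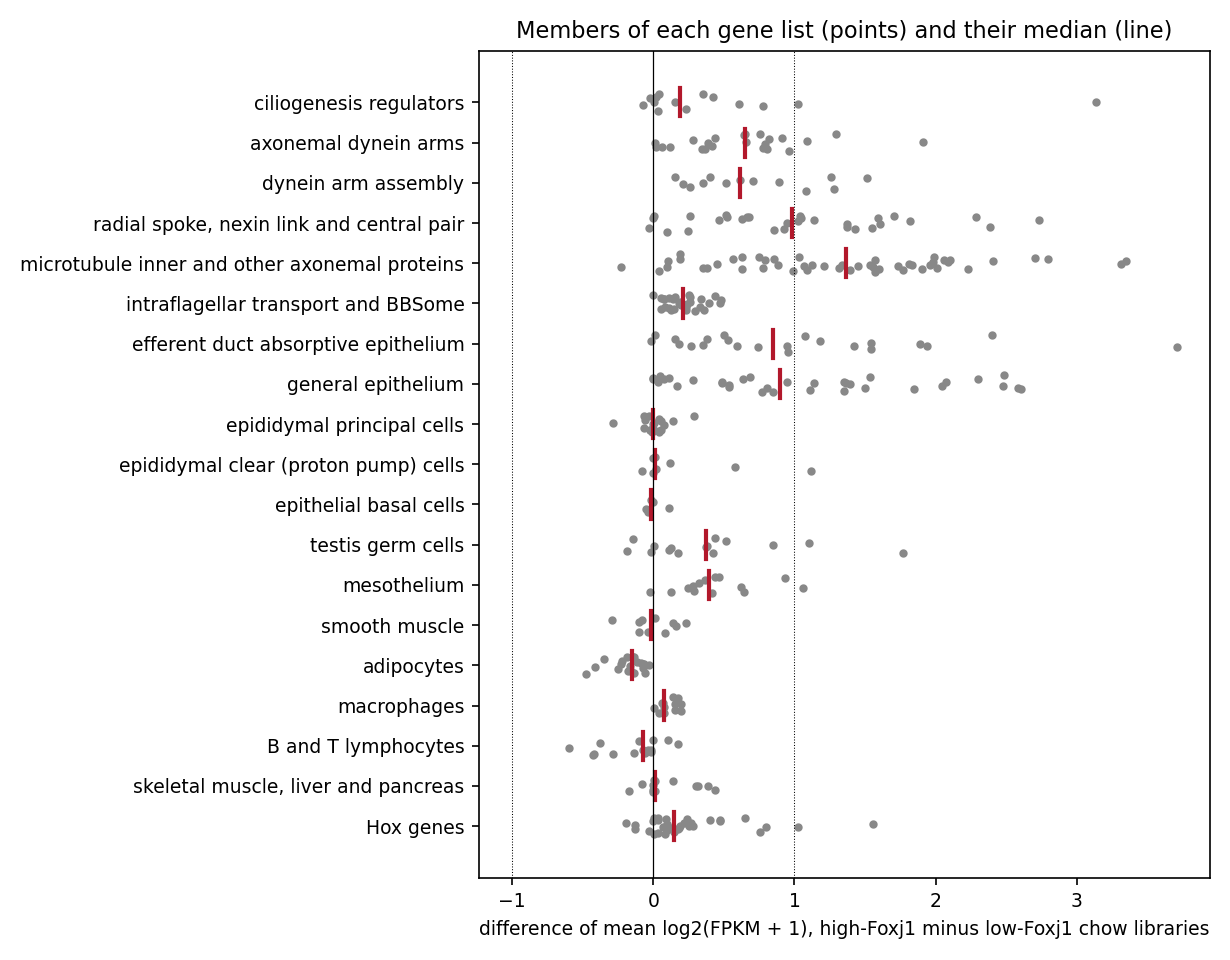
Difference in mean log2(FPKM + 1), high-Foxj1 minus low-Foxj1 chow libraries (horizontal axis), for every listed gene in the table (points), grouped by list, with the list's median as a red line. The median is 1.36 for microtubule inner and other axonemal proteins, 0.21 for intraflagellar transport and the BBSome, 0.39 for mesothelium and -0.15 for adipocytes.

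Promoter letters of the cilium genes are shown because RFX factors and FOXJ1 are known to bind an X-box and a forkhead motif there. The RefSeq promoters of GRCm38.p6 (250 bases before to 50 after the start) were searched on both strands for an X-box (the arms GTNNCC and GGNAAC with 2 free bases between them), for GTTGCCA, an arm that can lie inside an X-box, and GTAAACA (forkhead). The motifs were chosen after values had been seen. Of the 47 motile cilium genes higher by 1, 41 had a promoter in the table. The X-box letters were in 7 of these 41 (17.1%), against 206 of the 10711 tested genes with a promoter (1.92%). GTTGCCA was in 11 (26.8%), against 498 (4.65%). GTAAACA was in 3 (7.32%), against 350 (3.27%). Among the 27 intraflagellar transport and BBSome genes with a promoter, 5 held the X-box letters (18.5%) and 6 held GTTGCCA (22.2%), while their levels differed by at most 0.48. A match is a description of letters and not a binding site. The X-box matches of Kif9, Zmynd10, Cfap206, Pifo, Spag6l, Tekt4 and Ubxn11 and the forkhead matches of Ak7, Cfap43 and Sntn are printed with the match, on either strand, in capitals, 5′ to 3′ on the gene's strand.
Kif9, chr9:110476959-110476988, plus strand: ggcttcctGTTGCCATGGCGACtgtgtaca
Zmynd10, chr9:107547296-107547325, plus strand: gctccctcGTTTCCATGGCGACgacgactc
Cfap206, chr4:34730208-34730237, minus strand: cgcgttccGTTTCCACGGTTACgcgactgc
Pifo, chr3:106001496-106001525, minus strand: gcggttccGTTCCCTTGGCAACgtagtaca
Spag6l, chr16:16829314-16829343, minus strand: tccggttgctgtcgGTTGCCCTGGAGACgc
Tekt4, chr17:25471422-25471451, plus strand: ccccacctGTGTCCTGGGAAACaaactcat
Ubxn11, chr4:134102578-134102607, plus strand: gggtcctgGTCGCCTGGGAAACcccgagac
Ak7, chr12:105705840-105705869, plus strand: agtagagaaatTGTTTACccaagcagagcg
Cfap43, chr19:47837398-47837427, minus strand: aggatacaggtGTAAACAgtggcatcttcg
Sntn, chr14:13670629-13670658, plus strand: tagccattccaGTAAACAtactgagactaa

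Most genes listed for the absorptive side of the duct epithelium were higher as well. Of 22 listed genes in the table, 17 lay higher with no overlap and 9 by at least 1 (median difference 0.85). The shares were 12.7% of all genes above 0 in chow and, by at least 1, 2.59% of tested genes. Lrp2, the giant endocytic receptor megalin, was at 4.62, 3.66 and 1.62 FPKM in the high-Foxj1 libraries, against 0.373, 0.454 and 0.389 FPKM in the low-Foxj1 libraries. Folr1, a folate receptor, was at 7.32, 3.75 and 2.84 FPKM, against 0.313, 0.510 and 0.491 FPKM in the low-Foxj1 libraries. Slc9a3, the sodium-proton exchanger of fluid reabsorption, was at 2.46, 2.74 and 1.68 FPKM, against 0.155, 0.381 and 0.139 FPKM in the low-Foxj1 libraries. The receptors and the exchanger thus split the libraries as the cilium genes did. Emx2, a homeobox gene of the urogenital tract, differed by 1.18. Cdh16, a cadherin of kidney and duct tubules, was at 10.7, 10.3 and 5.61 FPKM in the high-Foxj1 libraries, against 0.699, 1.32 and 0.512 FPKM in the low-Foxj1 libraries. Adgrg2, an adhesion G-protein-coupled receptor required for efferent duct fluid handling, was at 36.6, 34.1 and 27.8 FPKM, against 16.3, 19.4 and 13.7 FPKM in the low-Foxj1 libraries and 0.817 to 2.21 FPKM in the HFD libraries. All its low-Foxj1 chow values lay above its HFD values, as did those of Foxj1, Ccdc153, Pax8 and Cdh16, whereas those of Mmp7, the lowest at 1.18 FPKM, overlapped HFD values of up to 1.497 FPKM. Slc4a4, Cubn, Car4, Car14 and Clu overlapped.

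A brush border set of 24 genes, gathered from the 371 after their values were seen, had a median difference of 1.55 that the choice fixed to be above 1. Ggt1 (chr10:75561076-75586193), which cleaves extracellular glutathione, was at 18.2, 11.8 and 9.06 FPKM in the high-Foxj1 libraries, against 0.809, 0.878 and 0.587 FPKM in the low-Foxj1 libraries. Slc7a9, a cystine and amino acid transporter subunit, was at 9.23, 7.92 and 3.84 FPKM, against 0.736, 0.383 and 0.228 FPKM in the low-Foxj1 libraries. Cdhr5, a protocadherin that links microvilli, was at 10.7, 8.201 and 5.57 FPKM, against 0.796, 0.910 and 0.772 FPKM in the low-Foxj1 libraries. The set also held the microvillar actin bundler Vil1 (1.61), the scaffold Pdzk1 (2.11) and the sodium channel subunit Scnn1a (1.65). Atp1b1, a beta subunit of the sodium pump, was at 34.7, 33.3 and 20.6 FPKM in the high-Foxj1 libraries, against 4.49, 6.24 and 7.56 FPKM in the low-Foxj1 libraries.

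General epithelial genes followed, with 26 of 34 higher without overlap and 16 by at least 1 (median difference 0.90). The shares were 12.7% of all genes above 0 in chow and, by at least 1, 2.59% of tested genes. Krt8, a simple-epithelium keratin, was at 38.3, 29.9 and 18.2 FPKM in the high-Foxj1 libraries, against 3.69, 4.78 and 3.92 FPKM in the low-Foxj1 libraries. Its partner Krt18 was at 32.1, 22.9 and 13.9 FPKM, against 3.42, 2.51 and 2.55 FPKM in the low-Foxj1 libraries. Elf3, an epithelial ETS factor, was at 11.6, 6.47 and 4.92 FPKM, against 0.495, 0.835 and 0.179 FPKM in the low-Foxj1 libraries. The keratin pair and Elf3 differed by 2.48 to 2.58 on the log2(FPKM + 1) scale. Among tight-junction claudins, Cldn10 was at 23.0, 15.2 and 9.41 FPKM in the high-Foxj1 libraries, against 3.06, 2.47 and 3.12 FPKM in the low-Foxj1 libraries, and the pore-forming Cldn2 at 18.5, 14.1 and 8.63 FPKM, against 1.33, 1.86 and 0.752 FPKM in the low-Foxj1 libraries. The adhesion protein Cdh1 differed by 1.54, while Krt7 overlapped.

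Further sets gathered from the 371 after their values were seen held 12 secreted proteins and 34 enzymes, and 175 of the 371 genes are in no list or set. Cuzd1, a secreted CUB and zona pellucida domain protein, was at 25.8, 26.2 and 14.7 FPKM in the high-Foxj1 libraries, against 1.81, 4.90 and 2.11 FPKM in the low-Foxj1 libraries. Ihh, a Hedgehog ligand, was at 4.53, 3.44 and 2.25 FPKM, against 0.422, 0.264 and 0.0729 FPKM in the low-Foxj1 libraries. Defb29, a beta-defensin, was at 5.14, 2.93 and 2.28 FPKM, against 0.169, 0.327 and 0 FPKM in the low-Foxj1 libraries. All 3 split the libraries without overlap. Spp1 (osteopontin), which macrophages also secrete, was at 4.13, 2.17 and 2.22 FPKM in the high-Foxj1 libraries, against 0.464, 0.291 and 0.463 FPKM in the low-Foxj1 libraries, and at 22.3 to 109 FPKM in HFD libraries. Among 34 enzymes, Dao, a D-amino acid oxidase, was at 17.5, 12.3 and 7.68 FPKM, against 1.34, 1.21 and 0.435 FPKM in the low-Foxj1 libraries. Srd5a2, which converts testosterone to dihydrotestosterone, was at 9.32, 4.23 and 2.61 FPKM in the high-Foxj1 libraries, against 0.587, 0.783 and 0.164 FPKM in the low-Foxj1 libraries. The glutathione transferase Gstm5 was at 122, 106 and 88.3 FPKM, against 36.7, 30.4 and 27.3 FPKM in the low-Foxj1 libraries, and Gstm7 and Gstm6 differed by 2.30 and 1.48. Reads of these similar Gstm paralogs may be split.

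The transcription factors outside the first lists included Hnf4a, a regulator of absorptive and liver cells, at 6.57, 6.82 and 3.15 FPKM in the high-Foxj1 libraries, against 1.45, 0.742 and 0.542 FPKM in the low-Foxj1 libraries. Sox9, a factor of duct progenitors, was at 5.18, 5.11 and 3.46 FPKM, against 1.59, 1.26 and 1.04 FPKM in the low-Foxj1 libraries. Of 33 Hox genes, which record position along the body axis, 10 lay higher with no overlap, against 12.7% of all genes above 0 in chow. Their median difference was 0.15. Hoxb9 was at 6.17, 5.73 and 3.51 FPKM in the high-Foxj1 libraries, against 0.892, 1.09 and 1.17 FPKM in the low-Foxj1 libraries. Hoxb8 was at 5.36, 3.94 and 3.49 FPKM, against 1.81, 1.31 and 1.59 FPKM in the low-Foxj1 libraries, and Hoxb7 and Hoxb6 differed by 0.80 and 0.75. The neighbouring genes Hoxb6 to Hoxb9 were all among the 10, whereas Hoxc8, at 48.2, 52.5 and 49.9 FPKM against 49.6, 52.0 and 64.3 FPKM in the low-Foxj1 libraries, overlapped. The microRNA gene row Mir196a-1 (chr11:96265164-96265265), beside Hoxb9, was at 4.54, 1.66 and 1.08 FPKM in the high-Foxj1 libraries, against 0.395, 0.305 and 0.0591 FPKM in the low-Foxj1 libraries. Lhx1os (chr11:84525660-84535831), an antisense RNA beside the urogenital homeobox gene Lhx1, was at 2.82, 1.39 and 1.24 FPKM, against 0.151, 0.232 and 0 FPKM in the low-Foxj1 libraries. Whether reads were counted by strand is not given in the sources used here, so its level is uncertain.

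Markers of neighbouring ducts and glands that have a row in the table were mostly near 0 or overlapped between the sides. No row was found for 11 of 32 listed epididymal principal cell names, among them Lcn5 and Gpx5. The same held for 8 of 13 seminal vesicle, vas deferens and prostate names, 6 of 12 kidney names and 5 of 12 secretory names. It also held for 2 of 13 Sertoli and Leydig names and 1 of 6 basal cell names (Krt5). Their levels are unknown. Of the 21 epididymal principal cell genes in the table, 1 lay higher without overlap, none passed the filter, and their summed level was 2.498, 2.37 and 1.70 FPKM in the high-Foxj1 libraries, against 1.51, 4.30 and 0.920 FPKM in the low-Foxj1 libraries. Adam7, an epididymal surface protein, made up much of the highest sum, at 2.11 FPKM in KO_NCD 4, a low-Foxj1 library. Of 8 clear cell genes, 2 lay higher with no overlap: Atp6v0a4, a proton pump subunit, differed by 1.12 and Atp6v1c2 by 0.58. However, Foxi1, the factor that defines proton-pumping cells, was listed at 0 in chow and Atp6v1b1 stayed at or below 0.0192 FPKM. Basal cell genes (0 of 5), seminal vesicle, vas deferens and prostate genes (0 of 5) and Sertoli and Leydig genes (0 of 11) gave no higher gene without overlap. Among oviduct and airway secretory genes 1 of 7 lay higher, and among kidney genes 3 of 6, all below 1 FPKM in every library. The share over all genes above 0 in chow was 12.7%.

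Cells of the fat pad itself differed less. Mesothelium, the lining of the pad, had a median difference of 0.39 over 14 genes, of which 1 lay higher with no overlap (13.1% of all tested genes did). That gene was Rspo1, a secreted enhancer of Wnt signalling, at 30.9, 16.4 and 15.7 FPKM in the high-Foxj1 libraries, against 7.65, 8.83 and 14.7 FPKM in the low-Foxj1 libraries. The summed level of the 14 was 357, 278 and 244 FPKM in the high-Foxj1 libraries, against 166, 215 and 320 FPKM in the low-Foxj1 libraries, so WT_NCD 1 overlapped the high side. The epithelial keratin Krt19, which mesothelium also makes, was at 29.1, 23.9 and 16.6 FPKM, against 7.20, 7.67 and 19.5 FPKM in the low-Foxj1 libraries. The part of mesothelium in the genes it shares with duct epithelium was not tested. Of 20 adipocyte genes, 5 lay lower with no overlap, against 2.63% of all tested genes. The amounts were small, and the median was -0.15. Plin1, the lipid droplet coat protein, was at 619, 633 and 650 FPKM in the high-Foxj1 libraries, against 727, 654 and 773 FPKM in the low-Foxj1 libraries. Dgat2, which makes triglyceride, was at 515, 576 and 612 FPKM, against 639, 730 and 922 FPKM in the low-Foxj1 libraries. Smooth muscle (10 genes) and macrophage genes (14 genes) gave none without overlap and medians of -0.01 and 0.08.

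Liver-type transcripts formed another pattern over the same libraries. Alb, the plasma protein albumin, was at 20.6, 568 and 158 FPKM in the high-Foxj1 libraries, against 211, 50.6 and 71.4 FPKM in the low-Foxj1 libraries, and Apoa1 and Ttr had the same order of chow libraries. These plasma protein genes overlapped between the sides. However, 49 of the 371 higher genes were highest in WT_NCD 2, and 23 of those shared their top libraries with Alb. These were WT_NCD 2 over all libraries, KO_NCD 3 among the low-Foxj1 libraries and WT_HFD 2 among the HFD libraries. The full order was not shared: Alb was lowest of chow in KO_NCD 2, where the 23 lay above every low-Foxj1 library. That order was seen in 304 of all tested genes. Fbp1, a gluconeogenic enzyme of liver and kidney, was one of these 23, at 6.22, 16.9 and 6.55 FPKM in the high-Foxj1 libraries, against 3.67, 1.13 and 1.80 FPKM in the low-Foxj1 libraries. Slc27a2, a fatty acid transporter, was another, at 6.29, 12.9 and 4.96 FPKM, against 4.07, 1.46 and 1.52 FPKM in the low-Foxj1 libraries. Hnf4a, the edge genes Haao and Glyat and Stk33, a gene of the motile cilium lists, are also among the 23. The part of liver-type RNA in the levels of the 23 was not tested.

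Of 15 testis germ cell genes 7 lay higher with no overlap, against 12.7% of all genes above 0 in chow, with a median difference of 0.38. The 15 genes summed to 19.9, 17.2 and 27.9 FPKM in the high-Foxj1 libraries, against 12.7, 13.2 and 14.3 FPKM in the low-Foxj1 libraries and 22.6 to 44.2 FPKM in the HFD libraries. The HFD sums were mostly Sycp3, a meiotic chromosome protein, at 12.8 to 32.8 FPKM there. A narrower set of postmeiotic sperm transcripts was chosen after values were seen. Its 14 genes summed to 7.87, 4.18 and 13.6 FPKM in the high-Foxj1 libraries, against 0.937, 0.511 and 0.375 FPKM in the low-Foxj1 libraries, and 9 of the 14 did not overlap. Prm2, a protamine that packs sperm DNA, was at 2.60, 1.19 and 5.22 FPKM, against 0.236, 0 and 0 FPKM in the low-Foxj1 libraries. Its partner Prm1 was at 1.34, 0.624 and 1.61 FPKM in the high-Foxj1 libraries and listed at 0 in all 3 low-Foxj1 libraries. Here WT_NCD 4, not KO_NCD 2, was the highest library. The sperm transcripts and the cilia did not always go together: WT_HFD 1 had 10.1 FPKM of the 14 sperm transcripts with Foxj1 at 0.0169 FPKM.

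The 15 lower genes were 14 immunoglobulin gene segments and Jchain, the joining chain of secreted antibodies. Their number was 27, 25, 24 and 23 without WT_NCD 2, WT_NCD 4, KO_NCD 4 and WT_NCD 1. Igkc, the kappa constant segment, was at 55.3, 282 and 200 FPKM in the high-Foxj1 libraries, against 332, 285 and 372 FPKM in the low-Foxj1 libraries. Ighv3-6 (chr12:114288152-114288447) was at 0.184, 1.63 and 0.0527 FPKM, against 6.27, 4.49 and 7.96 FPKM in the low-Foxj1 libraries. Summed over 252 segments the level was 471, 1195 and 818 FPKM, against 1342, 1385 and 1874 FPKM in the low-Foxj1 libraries, while HFD libraries ranged more widely, at 358 to 2971 FPKM. KO_NCD 2, the library with the most Foxj1, had the lowest sum in chow, and WT_NCD 2 lay close to the low-Foxj1 libraries. Of the 113 tested segments 16 lay lower without overlap and 1 higher, against 2.63% and 13.1% of all tested genes. Reads of similar segments may be split. Of 15 B and T cell genes none was apart, and the B cell receptor gene Cd79a was at 0.767, 2.497 and 4.495 FPKM, against 4.68, 3.43 and 3.71 FPKM in the low-Foxj1 libraries.

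**Figure D4:**
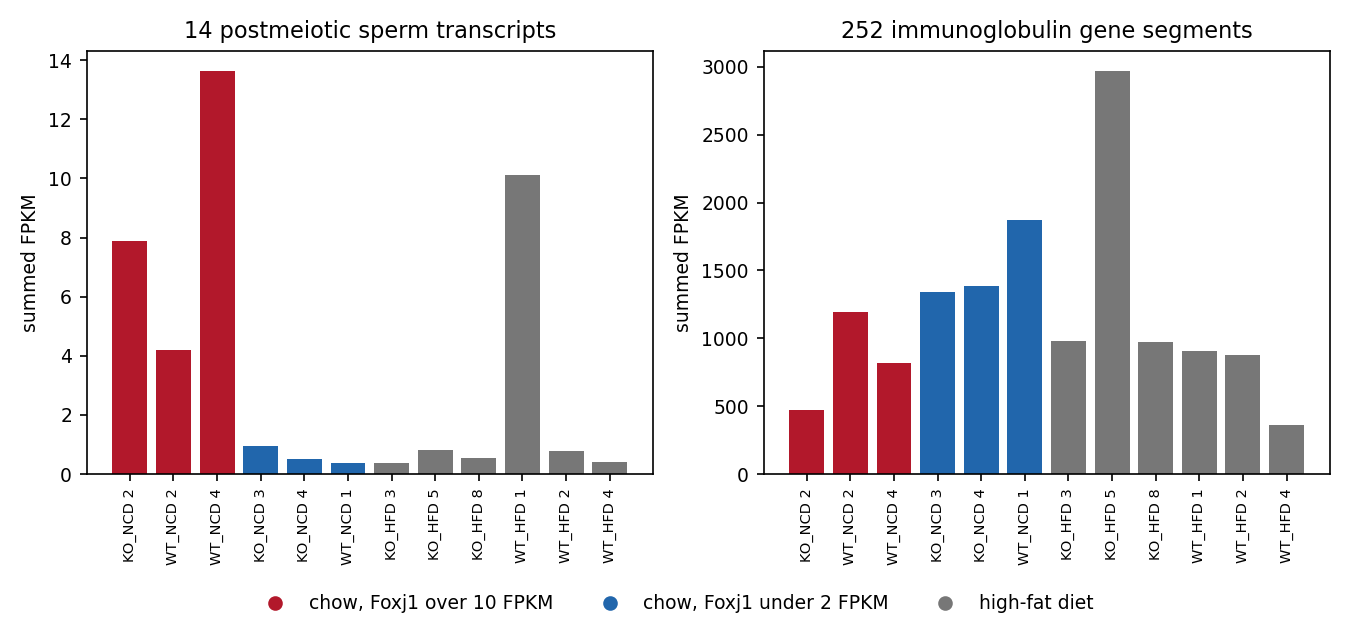
Summed FPKM (vertical axes, starting at 0) of 14 postmeiotic sperm transcripts and of 252 immunoglobulin gene segments in every library, coloured as high-Foxj1 chow (red), low-Foxj1 chow (blue) and HFD (grey). Sperm transcripts reach 4.18 to 13.6 FPKM in the red bars, at most 0.937 FPKM in the blue bars and 10.1 FPKM in the grey bar of WT_HFD 1, and immunoglobulin segments reach 471 to 1195 FPKM in red against 1342 to 1874 FPKM in blue.

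The higher genes kept nearly the same order over the libraries. KO_NCD 2 was the highest library for 317 of the 371 genes, and 295 had the full order of KO_NCD 2, WT_NCD 2 and WT_NCD 4. Of the 47 motile cilium genes 45 were highest in KO_NCD 2 and 2 in WT_NCD 2. With each gene set to 100% in KO_NCD 2, the median over the 371 genes was 76.6% in WT_NCD 2 and 54.4% in WT_NCD 4, against 9.76% in KO_NCD 3, 10.7% in KO_NCD 4 and 7.59% in WT_NCD 1. The 29 genes of the microtubule inner list that were tested and higher by 1 stood at medians of 75.2% and 52.6% in WT_NCD 2 and WT_NCD 4, against 7.40%, 6.99% and 3.63% in the low-Foxj1 libraries. The 24 brush border genes stood at 83.8% and 52.0%, against 9.76%, 11.5% and 7.83% in the low-Foxj1 libraries. Over all sets in WT_NCD 2, medians ran from 67.6% to 75.2% for axonemal sets and from 79.3% to 91.7% for the others. In WT_NCD 4 they ran from 52.6% to 55.8% and from 46.6% to 57.7%. Axonemal sets thus lay somewhat below the others in WT_NCD 2 and within their range in WT_NCD 4. This describes genes that the choice of libraries had already picked.

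The HFD libraries give levels that the choice did not use. The median over the 371 genes was 5.33% of KO_NCD 2 in WT_HFD 2 and 4.94% in KO_HFD 5, and 2.69% to 2.999% in the other 4 HFD libraries. WT_HFD 2 and KO_HFD 5, a pair picked out after their values were seen, both lay above the other 4 HFD libraries for 147 of the 371 genes (39.6%) and for 1019 of all tested genes (7.11%). In WT_HFD 2 and KO_HFD 5, Ccdc153 was at 0.472 and 0.678 FPKM, and in the other 4 it was listed at 0. Of the 47 motile cilium genes, 22 were listed at 0 in at least 1 HFD library. All 6 HFD libraries lay below all 3 low-Foxj1 chow libraries for 132 of the 371 genes (35.6%) and for 3425 of the 14340 tested genes (23.9%).

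**Figure D5:**
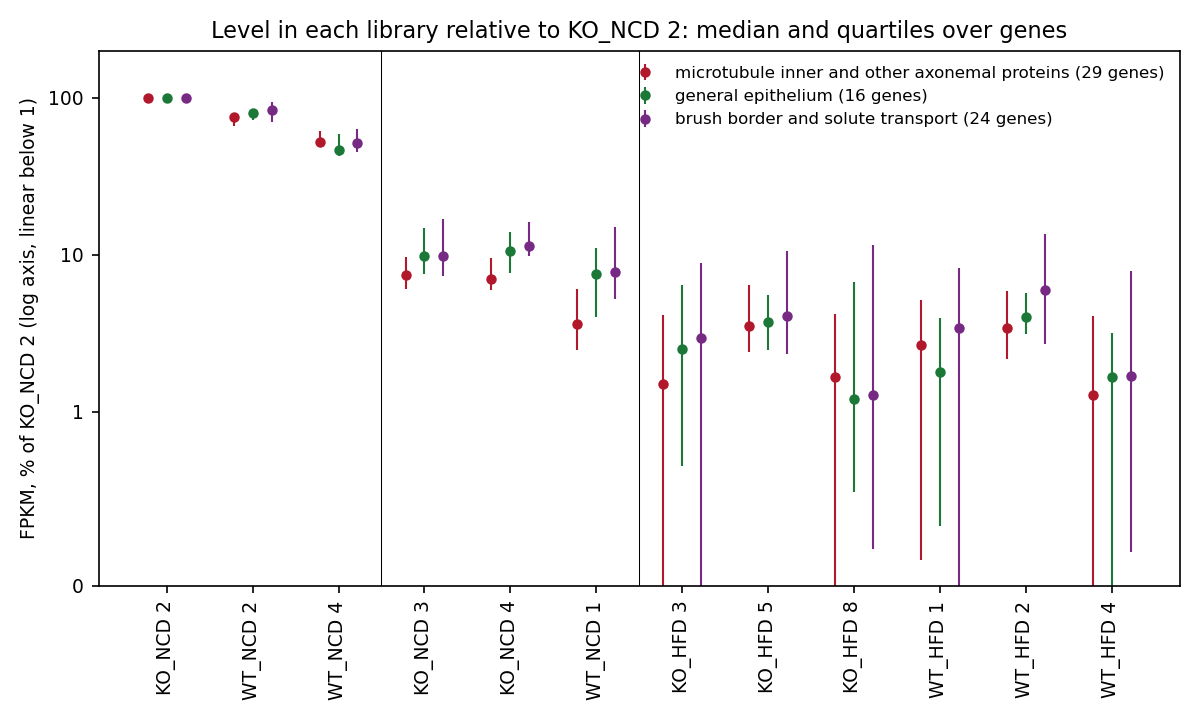
Level of the higher genes as a percent of KO_NCD 2 (vertical axis, logarithmic and linear below 1) in each library, as the median with the lower and upper quartile, for 29 microtubule inner and axonemal genes, 16 general epithelial genes and 24 brush border genes. The 3 sets are at medians of 75.2% to 83.8% in WT_NCD 2 and 46.6% to 52.6% in WT_NCD 4, at 3.63% to 11.5% in the low-Foxj1 chow libraries and at 1.20% to 5.95% in the HFD libraries.

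The labelled genotypes were compared with the limma test over all 14340 tested genes (KO minus WT on chow). Its 7 calls at a Benjamini-Hochberg adjusted p of 0.05 were 6 higher genes (0.0418%) and 1 lower gene (0.00697%), led by Nnt, and 0 were among the 371, of which 0 had an unadjusted p under 0.05. The 371 genes were picked for a split that runs within each genotype, so a large spread within genotypes was built in and the lack of a genotype call among them is no finding. Foxj1 was at 9.32 ± 13.8 FPKM in KO_NCD and 9.71 ± 8.51 FPKM in WT_NCD (SD, n = 3 each); its own values chose the libraries, so no test is given. Both genotypes hold high-Foxj1 and low-Foxj1 libraries, and the SD within each was close to or above its mean. Without KO_NCD 2, which leaves KO_NCD with its low-Foxj1 libraries alone, the median difference of the 371 genes was -0.81, against -0.25 with it and -0.05 over all tested genes, and 151 had an unadjusted p under 0.05, none of them called. That shift was likewise built in by the choice of the 371 and is no finding. Calls over all genes were 15 without KO_NCD 2, 13 without KO_NCD 3 and 14 without KO_HFD 8.

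The diet comparison shares the chow libraries that chose the 371 genes, so their counts in it are no independent support. HFD against NCD in WT gave 3645 higher genes (25.4%) and 3634 lower genes (25.3%) of the 14340, and 83 of the 371 were lower (22.4%) and 3 higher. In KO it gave 4967 higher (34.6%) and 3763 lower (26.2%), and 28 of the 371 were lower (7.55%) and 9 higher. Centring each library on its median turned the KO split to 3824 higher and 5188 lower and moved the median of all genes to -0.11, against 0.04. The median log2 difference of the members was -1.04 in WT and -0.84 in KO, against -0.03 and 0.04 for all tested genes.

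On the log2(FPKM + 1) scale, Ccdc153 fell on HFD by 3.39 in WT (limma adjusted p 0.0207) and by 2.78 in KO (0.0405). Foxj1 differed by -2.65 in WT (SE 0.99) and by -2.21 in KO. Its own chow values chose the libraries, so no test is given for it. The other markers follow the same chow split, so their p-values are no independent support. Mmp7 fell by 3.59 in WT (0.0305) and by 3.11 in KO (0.0462). Pax8 and Tmem212 passed in neither genotype (adjusted p 0.0578 to 0.116). Each of these marker calls was lost without 1 of several libraries. In WT this held for Ccdc153 and Mmp7 without WT_NCD 2 (adjusted p 0.0807 and 0.118), WT_NCD 4, WT_HFD 1 or WT_HFD 4. In KO it held for Ccdc153 and Mmp7 without KO_NCD 2 (0.149 and 0.175) or any HFD library, and for Mmp7 also without WT_NCD 4. Clic6, a chloride channel protein, fell by 2.34 in WT (0.00240), and Gstm6 fell by 2.28 in KO (0.00224). Spp1 went the other way and rose by 3.63 in WT (0.000207) and by 5.04 in KO (1.2e-05). In the test of whether diet effects differ between genotypes, 39 genes were called and none of the 371, of which 2 had an unadjusted p under 0.05 (lowest limma adjusted p 0.206). The calls of Clic6, Gstm6 and Spp1 held with each library left out in turn. However, these genes are members of the 371 and were named for the lowest p-values among them. Their chow values were used by the choice, so these calls are no independent support either.

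The number of members lower on HFD depended on the libraries and the scale. In WT, against 83 with all libraries, it was 7 without WT_NCD 2, 9 without WT_NCD 4, 307 without WT_NCD 1 and 297 without KO_NCD 2. It was 17, 35 and 10 without WT_HFD 1, WT_HFD 2 and WT_HFD 4, and 47, 49 and 52 without KO_HFD 3, KO_HFD 5 and KO_HFD 8. In KO, against 28, it was 6 without KO_NCD 2, 65 without KO_NCD 3, 69 without KO_NCD 4 and 93 without WT_NCD 1. It was 9, 14 and 8 without KO_HFD 3, KO_HFD 5 and KO_HFD 8, and 18 and 17 without WT_HFD 1 and WT_HFD 4. Without all 3 high-Foxj1 libraries it was 23 in WT, where WT_NCD 1 alone is left and is assumed to vary like the other groups, and 161 in KO, where 2 chow libraries are left, so the counts are not set against each other. With a pseudocount of 0.1 it was 189 in WT and 129 in KO.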

How the data were processed

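The deposited values are FPKM per gene in 1 table, as the authors computed them; the tools StringTie 1.3.4d, HISAT2 2.1.0, DESeq2, Trimmomatic and bcl2fastq 2.20.0 and the build mm10 are listed, with no roles, in the submitters' processing notes. Column headers gave each library's group, and their numbers differ from the titled replicate numbers, so columns were tied to groups alone; no sample column was unused (0). Of 30268 gene IDs, 30196 matched the RefSeq table, which gave coordinates and promoters. FPKM are not counts, so no count test was run; limma 3.58.1 (R 4.3.3, trend) was fitted to log2(FPKM + 1) with the 4 group means (8 residual degrees of freedom), over genes at 1 FPKM or more in at least 3 of 12 libraries, with Benjamini-Hochberg adjustment at 0.05. On data simulated for the genotype comparison on NCD (13780 genes, 200 changed) it recovered 87% of changes of 1 and 100% of changes of 2 on the log2 scale, with 15 false among 202 calls. The simulation gave all groups the same spread and changed only genes with a mean log2(FPKM + 1) above 1. Its recovery does not carry over to genes that, like Foxj1, vary far more on chow than on HFD. The high-Foxj1 and low-Foxj1 chow libraries were chosen by Foxj1 itself and compared by non-overlap and the difference in mean log2(FPKM + 1), which understates the change of low genes. The members, gene lists, further sets and motifs were chosen with earlier results of these data known. The genes named are the 5 markers, the 20 highest and 10 lowest differences, up to 4 high members and the lowest of each list and the lowest p-values of each label comparison; other genes were named after their values were seen. Alternatives changed the pseudocount (0.1), the filter, the scaling, the libraries entered and the replicate block.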

Additional observations from a re-analysis of the deposited data

How the results depend on the processing

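The depth behind these FPKM is unknown and each group has 3 libraries. Of the 371 genes higher in the high-Foxj1 libraries, all 371 remained with a pseudocount of 0.1 or no filter, but these 2 changes can only add genes. After median centring 341 remained, and after quantile scaling 324. Within WT alone 330 remained and within KO alone 365, where the choice had already fixed the lack of overlap and only the size could fail. A difference of 2 was reached by 64. Leaving out 1 library gave 351 to 407 higher genes, of which 329 to 370 were among the 371. The lower genes numbered 2 at a difference of 2, 41 within WT alone and 149 within KO alone, where 1 side has 1 library, and 12 to 27 with 1 library left out. Genotype calls on NCD, 7 in all, were 14 with no filter, 4 without the 3 high-Foxj1 libraries and 6 to 15 with 1 library left out; no member was called under any of these. Diet calls in WT were 3878 without the 3 high-Foxj1 libraries, where WT_NCD 1 is the only WT chow library left and is assumed to vary like the other groups, against 7279, and 5849 to 7652 with 1 library left out; in KO they were 7779 to 8756. Lower members in WT, 83, were 189 with a pseudocount of 0.1, 17 with no filter, 23 without the 3 high-Foxj1 libraries, 14 with a term for them and 7 to 307 with 1 library left out. In KO, 28 became 129, 9, 161, 145 and 6 to 93 under the same changes, and 86 after median centring. The cause was not tested. KO minus WT on NCD changed sign, uncalled, without the 3 high-Foxj1 libraries for Foxj1 (0.55), Ccdc153 (0.51), Tmem212 (0.82), Pax8 (0.24), Mmp7 (1.28) and Haao (0.0755), and with a term for them for Foxj1 (0.68), Ccdc153 (0.64), Tmem212 (0.72), Pax8 (0.42) and Mmp7 (0.87). With 1 library left out it ran from -1.60 to 0.25 for Foxj1, -1.78 to 0.20 for Ccdc153, -1.68 to 0.18 for Tmem212, -1.03 to 0.12 for Pax8 and -1.93 to 0.50 for Mmp7. Same-numbered libraries did not deviate together throughout (correlations of -0.463 to 0.364), so the numbers do not pair samples; a replicate block gave 2 genotype calls on NCD and 6745 diet calls in WT with 107 lower members, and in KO the diets share 1 number, so no paired analysis was possible there.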
